A study of Glycine max with 12 samples.

Results

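The genes described here are the most abundant transcripts of the soybean (Glycine max) root that stand far lower in leaf. They were chosen by measured values: in the Jack libraries, each gene's CPM (its counts over the plain library total, scaled as in counts per 1e6) were averaged over replicates, genes at least 20 times higher in root than in leaf were kept, and the 150 highest in root were taken. The rule leaves out 1 of these by name, so 149 of the 43517 gene models in the table are described. Plants of line OE-34, which overexpress GmZF351, are called OE, and plants of the control cultivar Jack are called WT. Leaf and root were taken from pot-grown plants at the V1 stage, when the first trifoliate leaf is fully open, with 3 libraries each for OE root, WT root, OE leaf and WT leaf. GmZF351 encodes a tandem CCCH zinc finger protein known in soybean for raising seed oil. OE-34 is a single transgenic line, the labels do not name the promoter of its transgene, and they say of the replicates only that they were biological repeats, so a p-value here speaks only of the variation among these libraries.

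A root takes up water and mineral ions, anchors the plant and meets soil microbes, and its most restricted transcripts often serve those tasks. PHT1 proteins carry phosphate across the plasma membrane, and germin-like proteins are small extracellular proteins of the cupin family. Tonoplast aquaporins let water cross the vacuole membrane. Soybean roots also make and store isoflavones, phenolic compounds that act as signals to nodulating bacteria and in defence.

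The libraries held 17801820 to 18686319 counts in OE root, 16885874 to 17330102 in WT root, and those of leaf 16892076 to 19041634 (OE) and 17947388 to 18326987 (WT). One WT root library, replicate 3, stood apart: its counts differed from those of replicates 1 and 2 with chi-square values per gene of 9.87 and 7.1, against 2.97 between replicates 1 and 2. Leaf tissue was scarce in the root libraries: the summed level of the photosynthesis genes RBCS2 and RCA11 was 5.911 to 9.716 CPM in OE root and 8.007 to 8.885 CPM in WT root, against 20220 to 22980 CPM in OE leaf and 37180 to 42870 CPM in WT leaf. All 4 leghemoglobin genes matched, which mark nitrogen-fixing nodules, had 0 counts in all 12 libraries.

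Just inside the rank limit, Glyma.17G163200 and Glyma.10G066700 stood at 241.6 and 238.6 CPM in WT root on the plain totals, and just outside it Glyma.18G217000 and Glyma.05G057100 stood at 238.6 and 237.0 CPM. The ratios of WT root over WT leaf nearest to the limit of 20 were 20.6 for Glyma.02G241200 and 20.63 for Glyma.14G211000 inside it, and 19.68 for Glyma.11G013200 and 19.61 for Glyma.12G195500 outside it. All levels below are CPM on library sizes scaled by the TMM method, unless another scale is named, and fold changes come from the edgeR quasi-likelihood fit on all genes. A gene is called changed where the Benjamini-Hochberg adjusted p over the 35968 genes tested is under 0.05. All 149 genes were tested, but they passed the filter on low counts through root, where the rule made them high.

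In OE root most of these transcripts were lower than in WT root. Of the 149, 99 fell, 13 rose and 37 did not pass the test. The fall took 66.4% of the 149, where 18.1% of all genes tested fell, and the rise 8.72%, where 12% of all genes tested rose. By at least 2-fold 37 fell, or 24.8% where 5.52% of all genes did, and 0 rose, where 2.02% of all genes did. By at least 4-fold 9 fell, where 1.71% of all genes did. The median log2 fold change (log2FC, OE over WT) was -0.49, with quartiles of -0.99 and -0.13, against a median of -0.02 over all genes tested. OE root and WT root libraries did not overlap in 126 of the 149, with OE root lower in 108 (24.7% of all genes tested) and higher in 18 (19.5% of all genes tested). In bulk tissue, fewer cells of a type and less RNA per cell cannot be told apart.

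The choice of genes rests on WT libraries that are also part of this contrast, so the counts above are a description. Choosing on 1 WT replicate and fitting without it gave 95 to 99 falls and 10 to 14 rises among 149 genes. Applying the same rule to the OE libraries in place of the WT libraries gave a list of 149 that shared 100 genes, of which 57 fell and 36 rose, with a median log2FC of -0.11. The excess of falls therefore depended in size on which genotype chose the list. Among 3519 other genes that met the 20-fold ratio at lower root levels, 32.5% fell and 12.4% rose. Among 272 genes as abundant in WT root but not restricted to it, 42.3% fell and 18.4% rose.

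**Figure D1:**
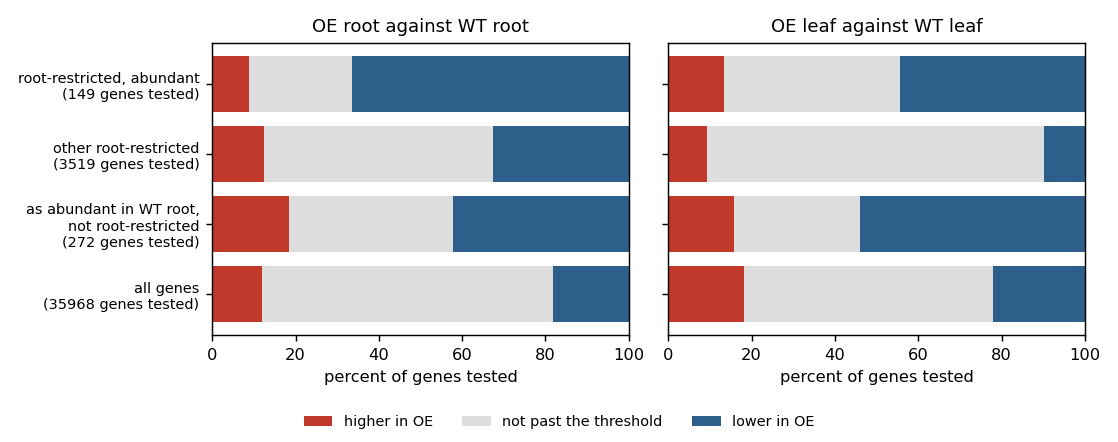
Percent of genes tested that were higher in OE (red), not past the threshold (grey) or lower in OE (blue), for root on the left and leaf on the right, with the 149 abundant root-restricted genes in the top bar and 3 other sets below. In root the blue share is 66.4% of the 149 genes and 18.1% of all genes.

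As a share of all counts, the 149 genes together took 7.34% ± 0.083 of them in OE root and 9.09% ± 0.25 of them in WT root (n = 3 each, SD). The OE root libraries lay between 7.27% and 7.43% and the WT root libraries between 8.82% and 9.31%, so the groups did not overlap. The genes were chosen for a high level in WT root, which tilts these shares toward WT root. The shares, and the level classes below, are thus a description, and the share was not computed for the list chosen in the OE libraries. Falls were found at every level: among the 49 highest in WT root 31 fell, among the next 50 genes 32 fell, and among the 50 lowest 36 fell. The medians of these 3 level classes were -0.49, -0.44 and -0.61.

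**Figure D2:**
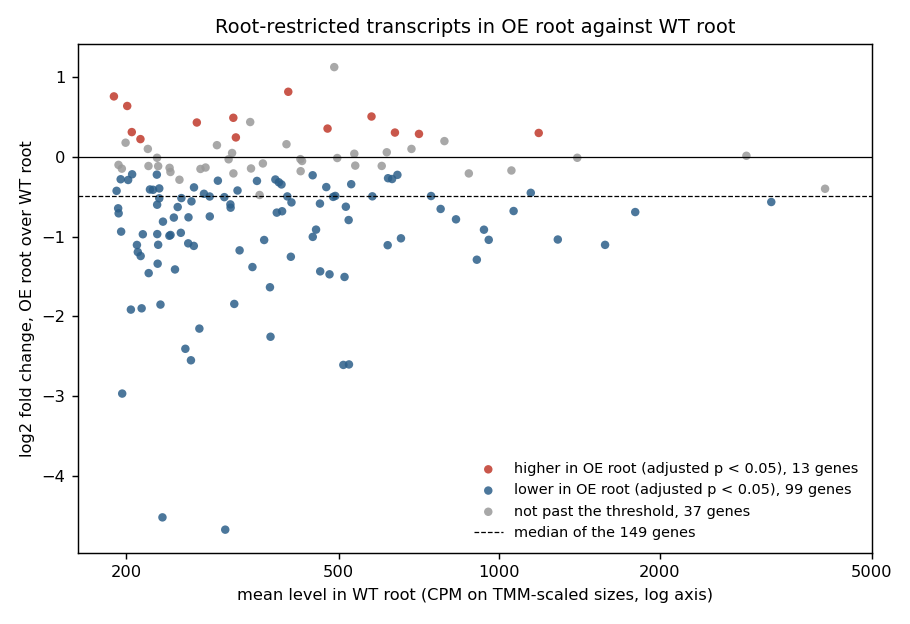
Log2 fold change in OE root over WT root (vertical) against the mean level in WT root (horizontal, CPM on a log axis) for each of the 149 genes, coloured by call. Points lie mostly under the zero line, with the dashed median at -0.49, and the 2 lowest points are Glyma.01G048400 and Glyma.06G139500.

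The largest fall belonged to Glyma.01G048400 (chromosome 1, 5627602 to 5631187, plus strand, 4 exons), a gene with no annotated function in the sources used here. It stood at 12.23, 12.23 and 11.63 CPM in the OE root libraries, against 285.7, 305.8 and 328.1 CPM in the WT root libraries, 25.5-fold lower (log2FC -4.67, SE 0.0949, edgeR adjusted p = 1.62e-27). Glyma.06G139500 (chromosome 6, 11374542 to 11383558, minus strand, 10 exons) was 22.9-fold lower, with 9.932, 9.865 and 10.79 CPM in OE root against 239.3, 222.1 and 239.5 CPM in WT root (a log2FC of -4.52 with an SE of 0.106, edgeR adjusted p = 7.42e-26). In each gene the highest OE root library lay more than 16-fold under the mean of the WT root libraries, and no other of the 149 fell as far as 8-fold.

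Glyma.12G130200 (chromosome 12) followed, at 26.38, 24.17 and 24.89 CPM in OE root against 198.8, 192.8 and 197.7 CPM in WT root, 7.81-fold lower. Glyma.01G083300 (chromosome 1) stood at 84.43, 81.24 and 85.69 CPM in OE root against 497.7, 519.3 and 514.5 CPM in WT root, 6.09-fold lower. The replicates of each group lay close together in both genes, and the groups were far apart. Glyma.16G060700, Glyma.06G300200, Glyma.05G215900, Glyma.15G128700, Glyma.10G006900 and Glyma.06G085800 complete the 10 largest falls, between 6.07-fold and 3.77-fold lower, with no overlap between the groups and edgeR adjusted p of at most 1.94e-17.

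**Figure D3:**
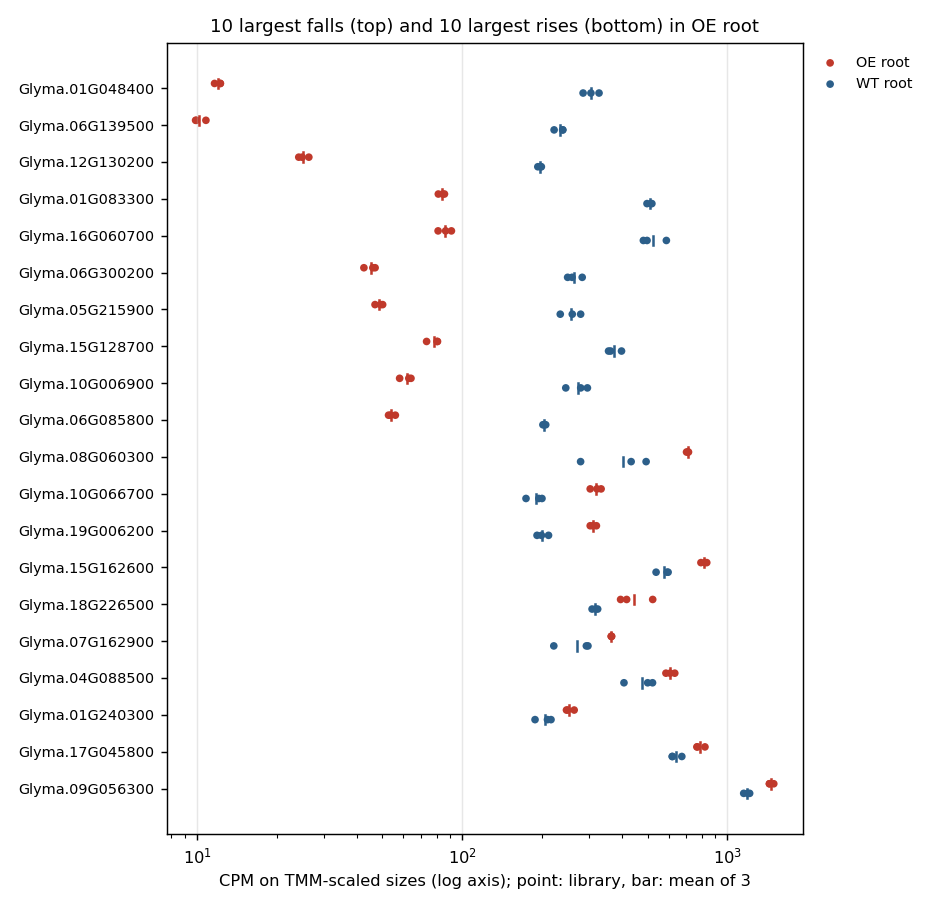
Levels per library (CPM on a log axis) of the 10 genes with the largest falls and the 10 with the largest rises, OE root in red above WT root in blue for each gene, with a bar at the mean of 3 libraries. The falls span 25.5-fold to 3.77-fold, while the largest rise is 1.76-fold.

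For 8 of the 149 a published soybean name was matched in the RefSeq symbol table, and 7 of these fell in OE root. Over the whole 149, 66.4% fell, and over all genes tested 18.1%. All of these names but HIDH were written after the data were examined, so the count is a description. Both phosphate transporter genes of the PHT1 family were lower. PHT1-3 (Glyma.10G006700, chromosome 10, 662561 to 665361, minus strand) stood at 620.0, 627.5 and 637.8 CPM in OE root against 1329, 1345 and 1193 CPM in WT root. This was 2.05-fold lower, a log2FC of -1.04 with an SE of 0.0828 (edgeR adjusted p = 1.58e-11). PHT1-14 (Glyma.02G005800, chromosome 2, 634487 to 639201, minus strand) stood at 484.9, 473.6 and 489.1 CPM in OE root against 843.6, 888.6 and 758.9 CPM in WT root, 1.72-fold lower (edgeR adjusted p = 7.2e-09).

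The germin-like genes GER2 and GER3 and the unnamed Glyma.16G060700 lie side by side on chromosome 16, between 5953190 and 5962936. Their falls differed in size. GER2 (Glyma.16G060800) stood at 124.4, 118.0 and 117.0 CPM in OE root against 376.5, 377.5 and 361.5 CPM in WT root, 3.10-fold lower. GER3 (Glyma.16G060900) stood at 205.0, 191.1 and 212.2 CPM in OE root against 283.8, 288.3 and 266.6 CPM in WT root, 1.38-fold lower. The gene beside them, Glyma.16G060700, was 6.07-fold lower, with means of 86.22 ± 4.98 CPM in OE root and 523.0 ± 57.6 CPM in WT root (n = 3 each, SD). These 3 genes had 0 counts in every leaf library. Under the recorded settings, reads that map to several copies count for none of them, so levels of neighbouring copies are uncertain.

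DAO (Glyma.17G019300, chromosome 17), a diamine oxidase, an enzyme that oxidises diamines such as putrescine, stood at 170.5, 179.3 and 192.6 CPM in OE root against 489.5, 514.2 and 535.4 CPM in WT root. This was 2.84-fold lower, a log2FC of -1.51 with an SE of 0.0815 (edgeR adjusted p = 6.9e-15). ICHG (Glyma.12G053800, chromosome 12), a beta-glucosidase that frees isoflavones from their sugar conjugates, stood at 754.3, 714.0 and 740.2 CPM in OE root against 1489, 1607 and 1647 CPM in WT root. This was 2.15-fold lower, a log2FC of -1.10 with an SE of 0.0893 (edgeR adjusted p = 8.93e-12). HIDH (Glyma.01G239600, chromosome 1), the dehydratase that completes isoflavone formation, stood at 159.8, 150.9 and 173.4 CPM in OE root against 282.6, 268.3 and 197.8 CPM in WT root, 1.55-fold lower (edgeR adjusted p = 0.000172). The groups did not overlap in any of the 3, although WT root replicate 3 came close to OE root for HIDH. The aquaporin gene TIP4-1 (Glyma.04G083200, chromosome 4) was the exception among the named genes, with 427.6, 469.4 and 439.2 CPM in OE root against 423.0, 401.5 and 373.4 CPM in WT root (log2FC 0.16, edgeR adjusted p = 0.167). It passed in a fit of the root libraries alone and with library totals, with edgeR adjusted p of 0.0193 and 0.02.

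HIDH is also the only one of the 149 in a list of isoflavonoid genes, of which 11 of the 17 written had a matched name. In that list 10 of 11 fell in OE root and 0 rose, with a median log2FC of -0.89 against -0.02 over all genes tested, of which 18.1% fell and 12% rose. The chalcone synthase CHS6, on low counts, was the gene that did not pass (log2FC -0.35, edgeR adjusted p = 0.299). In leaf 4 of the 11 fell and 1 rose, with a median of 0.03, where 22.1% of all genes tested fell and 18.3% rose.

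Rises in OE root were small. Glyma.08G060300 (chromosome 8) rose most, with 701.7, 713.7 and 709.0 CPM in OE root against 493.9, 433.7 and 279.6 CPM in WT root. This was 1.76-fold higher, a log2FC of 0.82 with an SE of 0.144 (edgeR adjusted p = 0.000386). Its WT root libraries were spread widely, and the log2FC was 0.61 without WT root replicate 3 and 0.99 without replicate 1. In a fit of the root libraries alone its call was lost (edgeR adjusted p = 0.0558). Glyma.10G066700 (chromosome 10) stood at 334.1, 303.9 and 322.3 CPM in OE root against 199.9, 194.5 and 174.0 CPM in WT root, 1.69-fold higher. Glyma.19G006200 (chromosome 19) stood at 311.3, 303.9 and 320.7 CPM in OE root against 191.5, 199.0 and 211.6 CPM in WT root, 1.55-fold higher. The groups of both genes were clearly apart. The other named rises, Glyma.15G162600, Glyma.18G226500, Glyma.07G162900, Glyma.04G088500, Glyma.01G240300, Glyma.17G045800 and Glyma.09G056300, lay between 1.42-fold and 1.23-fold higher, with edgeR adjusted p between 5.3e-06 and 0.035. The rise of Glyma.18G226500 in root lost its call in the fits without OE leaf replicate 1 and without any 1 of the 6 root libraries except OE root replicate 3, where the edgeR adjusted p reached 0.12 at most. It was also lost with no filter on low counts (edgeR adjusted p = 0.0651) and by the DESeq2 test (adjusted p = 0.24).

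Per length, the highest transcript in WT root was Glyma.08G230500 (chromosome 8, 18862871 to 18864462, minus strand, 2 exons), at 9122 ± 110 TPM (transcripts per 1e6, a scale corrected for exonic length) in OE root and 8450 ± 250 TPM in WT root (n = 3 each, SD). On the scale of the test it did not differ, with 2974, 2860 and 2980 CPM in OE root against 2851, 2937 and 2945 CPM in WT root (log2FC 0.01, edgeR adjusted p = 0.941). Next by TPM was Glyma.09G092700 (chromosome 9, 1 exon), at 2682 ± 122 TPM in OE root and 3295 ± 1210 TPM in WT root. Its libraries stood at 2954, 3118 and 3225 CPM in OE root against 5421, 4454 and 2393 CPM in WT root (log2FC -0.40, edgeR adjusted p = 0.34). The WT root libraries surrounded the OE root libraries, since replicates 1 and 2 lay above them and replicate 3 below. Without replicate 3 of WT root the log2FC was -0.67, with edgeR adjusted p = 3.9e-05, and without replicate 1 it was -0.14, with edgeR adjusted p = 0.752.

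Of the other 8 genes highest in WT root by TPM, Glyma.12G217300, Glyma.07G007000, Glyma.01G208200 and ICHG fell. Glyma.07G007000 (chromosome 7) stood at 2251, 2138 and 2180 CPM in OE root against 3134, 3160 and 3430 CPM in WT root, 1.48-fold lower (edgeR adjusted p = 8.47e-07). Glyma.11G034000 (log2FC -0.01), Glyma.17G030200 (-0.17), Glyma.02G083700 (-0.48) and Glyma.10G206900 (1.12) did not pass the test. Glyma.10G206900 (chromosome 10) had the highest positive log2FC of the 149, at 935.6, 1137 and 1137 CPM in OE root against 734.3, 527.5 and 210.7 CPM in WT root (with an SE of 0.371, edgeR adjusted p = 0.0519). Its groups did not overlap, but the WT root libraries differed among themselves by more than 3 times. Leaving out WT root replicate 3 brought its log2FC to 0.76 (edgeR adjusted p = 3.05e-06), and leaving out replicate 1 brought it to 1.54 (edgeR adjusted p = 0.0151). For Glyma.02G083700 the log2FC was -0.80 without WT root replicate 3 (edgeR adjusted p = 1.79e-06) and -0.20 without replicate 1 (edgeR adjusted p = 0.728).

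Such uneven genes shared a pattern in WT root. In 9 of the 149 the SD over WT root libraries was at least 20% of the mean. In all 9 the lowest library was WT root replicate 3 and the highest was WT root replicate 1. They were Glyma.10G206900, Glyma.16G170100, Glyma.02G083700, Glyma.09G092700, Glyma.13G005500, Glyma.17G145300, Glyma.08G060300, Glyma.17G236200 and Glyma.12G093100, picked out after their values were seen. None of the 149 reached that spread in OE root. Over all 149 genes WT root replicate 3 was the lowest WT root library in 62 and the highest in 71, so it was not low throughout. Without WT root replicate 3, 103 genes fell and 12 rose in OE root, and without WT root replicate 1, 96 fell and 13 rose.

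Position and structure of the genes varied. Of the 149, 148 lay on the 20 chromosomes, between 3 on chromosome 5 and 13 on chromosome 9, and 1 lay on a scaffold. The median exonic length was 1715 bp and the median number of exons 3, where all genes tested had medians of 1857 bp and 5 exons. Of the genes with 1 exon, 12 of 21 fell, and of those with several, 87 of 128 fell. Over all genes tested 18.1% fell. The median root log2FC was -0.49 in both classes. Shares of falls by exon number were not computed over all genes, so these counts are a description. There were 7 places where 2 or 3 of these genes lay within 50 kb of each other, holding 15 genes or 10.1% of the 149, against 14 genes or 5.15% of the 272 as abundant in WT root but not restricted to it.

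Genes near each other did not always move alike in OE root. Glyma.10G006900, 12887 bp from PHT1-3 with 1 gene between them, stood at 64.06, 58.05 and 62.87 CPM in OE root against 279.9, 296.6 and 245.8 CPM in WT root, 4.45-fold lower. Glyma.15G128700 and Glyma.15G129100 on chromosome 15 had log2FC of -2.25 and -1.04, and both fell. On chromosome 9, Glyma.09G023000 fell (log2FC -1.11) while Glyma.09G022500, 30592 bp away, had a log2FC of 0.10 that did not pass. Glyma.13G306900 and Glyma.13G307000 on chromosome 13 did not pass either, at 0.05 and -0.11. In the 2 remaining pairs, Glyma.14G195000 with Glyma.14G195200 and Glyma.02G228100 with Glyma.02G228200, both genes fell. The neighbours were set out after their values were known.

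By group means, no transcript of the set crossed 1 CPM upward in OE leaf. Of those with 0 counts in WT leaf, 2 were called higher in OE leaf on a few counts. Others were detected there without a call, such as Glyma.08G230500 with 3 counts in OE leaf. Glyma.14G201700 (chromosome 14) had 1, 8 and 1 counts in the OE leaf libraries and 0 in each WT leaf library (edgeR adjusted p = 0.0073). Glyma.20G220900 (chromosome 20) had 3, 1 and 5 counts in OE leaf and 0 in each WT leaf library (edgeR adjusted p = 0.00837). Both were called higher, were picked out after their values were seen, and stayed near the floor of 3 counts per library, so no fold is given. Neither passed the filter in a fit of the leaf libraries alone, so both were tested in leaf only through their level in root. Of the 149, 87 reached 1 CPM in OE leaf and 102 in WT leaf, and 0 reached it in OE leaf alone. In the opposite direction 15 genes were under 1 CPM in OE leaf and at or above it in WT leaf. Counts were 0 in all 3 OE leaf libraries for 21 genes and in all 3 WT leaf libraries for 16, with 12 genes at 0 in both groups. At 0 counts, a library may still hold a transcript at up to 3 counts, about 0.188 CPM in OE leaf and 0.247 CPM in WT leaf, a limit for counting error only. Together the 149 took 0.123% ± 0.0017 of counts in OE leaf and 0.111% ± 0.003 in WT leaf (SD, n = 3 each). On TMM-scaled sizes the direction was the opposite, with a summed level of 1384 to 1433 CPM in OE leaf and 1595 to 1685 CPM in WT leaf.

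Among the 102 genes at 1 CPM or more in either leaf group, 18 rose in OE leaf, 59 fell and 25 did not pass. Over the whole 149, 20 rose (13.4%, where 18.3% of all genes tested did) and 66 fell (44.3%, where 22.1% of all genes did), with a median log2FC of -0.43 against 0.00 over all genes. However, 46 of the 149 did not pass the filter in a fit of the leaf libraries alone, and entered the leaf comparison only through their level in root. Among the other 103, that fit called 15 higher and 56 lower, or 14.6% and 54.4%, where it called 21.0% and 23.8% of all genes it tested. With library totals in place of TMM scaling, 31 of the 149 rose and 48 fell in leaf and the median was -0.05, while the median of all genes tested stood at 0.38. Of the 272 genes as abundant in WT root but not restricted to it, 54.0% fell in leaf. The 47 genes under 1 CPM in both leaf groups had 281 counts in OE leaf and 314 in WT leaf in all, with at most 36 for a gene in OE leaf and 34 in WT leaf. Of these, 9 were called in leaf, the 2 named above as higher and 7 as lower. None of the 9 passed the filter in a fit of the leaf libraries alone. The lower ones held 0 to 7 counts per gene in OE leaf, against 4 to 34 counts in WT leaf, the most in Glyma.06G300200, with 1 count in OE leaf and 34 in WT leaf.

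**Figure D4:**
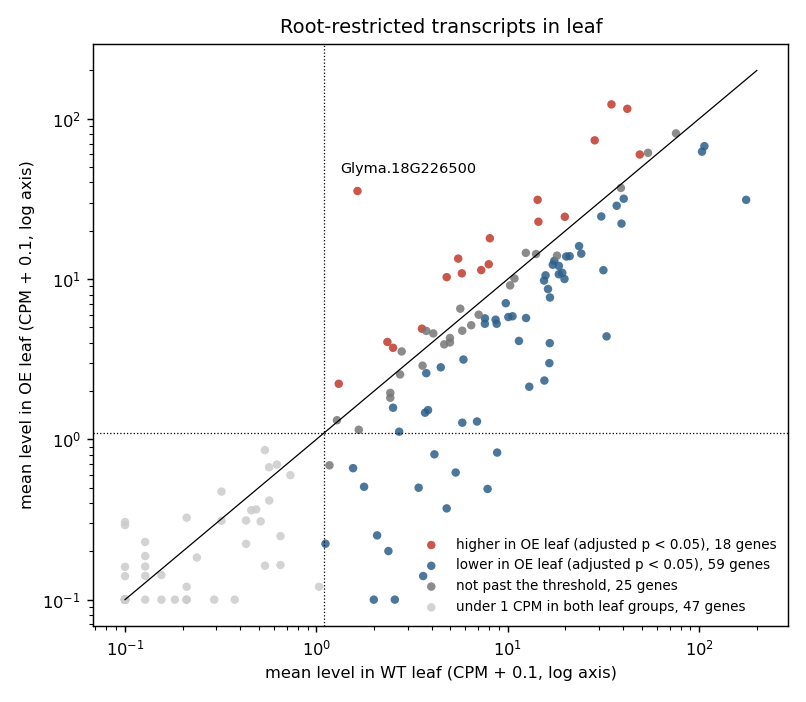
Mean level in OE leaf (vertical) against WT leaf (horizontal), both as CPM + 0.1 on log axes, for the 149 genes, coloured by call, with the diagonal of equal levels and dotted lines at 1 CPM. The field above the horizontal and left of the vertical dotted line holds no gene, and Glyma.18G226500 lies farthest above the diagonal.

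Among the 102 genes at 1 CPM or more in a leaf group, the largest rise in leaf belonged to Glyma.18G226500 (chromosome 18, 51507715 to 51550797, plus strand, 15 exons). It stood at 34.00, 29.85 and 42.04 CPM in OE leaf against 2.393, 0.328 and 1.895 CPM in WT leaf, 22.8-fold higher (log2FC 4.51, SE 0.297, edgeR adjusted p = 2.46e-08). The groups were far apart, and the WT leaf libraries held 56 counts in all. In root its libraries stood at 417.1, 523.0 and 395.7 CPM in OE and 308.9, 318.9 and 324.3 CPM in WT. The ratio of root over leaf on plain totals was thus 19.4 in OE, under the limit of 20, and 386 in WT.

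Other rises started from a level already clear in WT leaf. Glyma.15G162600 (chromosome 15, 16 exons), the highest of the 149 in OE leaf, stood at 117.2, 128.5 and 122.5 CPM in OE leaf against 33.17, 32.90 and 37.98 CPM in WT leaf, 3.54-fold higher (edgeR adjusted p = 1.23e-17). Glyma.17G230700 (chromosome 17) stood at 120.6, 111.1 and 113.9 CPM in OE leaf against 39.77, 44.56 and 41.60 CPM in WT leaf, 2.74-fold higher. Glyma.03G132700 (chromosome 3) stood at 69.26, 79.08 and 71.22 CPM in OE leaf against 30.03, 28.39 and 26.61 CPM in WT leaf, 2.58-fold higher. All 3 genes had leaf groups that did not overlap, and while Glyma.15G162600 also rose in OE root, the other two fell there, by log2FC -0.38 and -0.57. Glyma.13G005500, Glyma.13G266100, Glyma.18G041100, Glyma.09G049100, Glyma.12G141000 and Glyma.02G228100 rose between 2.46-fold and 1.75-fold in OE leaf. The call for Glyma.13G005500 was lost without WT leaf replicate 1 or 2, with edgeR adjusted p of 0.0623 and 0.0599.

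Of the 10 genes highest in OE leaf, Glyma.14G016300 stood at 80.87 ± 2.87 CPM in OE leaf and 75.51 ± 4.65 CPM in WT leaf (SD, n = 3 each), which did not pass the test (log2FC 0.10, edgeR adjusted p = 0.367). Glyma.09G056300 (log2FC 0.18) and Glyma.02G296600 (-0.08) did not pass either. With library totals all 3 passed as higher in OE leaf, at log2FC 0.48, 0.57 and 0.31 for Glyma.14G016300, Glyma.09G056300 and Glyma.02G296600, the sign of the last one turning. Glyma.06G186300 rose 1.22-fold in leaf, at 59.70 ± 2.25 CPM in OE leaf and 48.81 ± 2.09 CPM in WT leaf. Glyma.11G034000 and Glyma.12G217300 fell, 1.58-fold and 1.66-fold. The 5 highest genes held 32.7% of the summed OE leaf level of the 149.

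Several transcripts at a low level in WT leaf had few or no counts in OE leaf. PHT1-3 had 0 counts in OE leaf against 69 in WT leaf, where its libraries stood at 1.898, 1.395 and 2.389 CPM, at least 10.1-fold lower when each OE leaf library is set to 3 counts. Glyma.16G216500 (chromosome 16) had 0 counts in OE leaf against 90 in WT leaf, at least 13.1-fold lower. Glyma.01G083300, which also fell in root, had 2 counts in OE leaf against 128 in WT leaf. At higher levels, Glyma.07G007000 stood at 28.70, 31.62 and 32.91 CPM in OE leaf against 176.4, 181.7 and 169.0 CPM in WT leaf, 5.65-fold lower (log2FC -2.50, SE 0.0892, edgeR adjusted p = 3.28e-21). Glyma.01G208200 stood at 3.250, 4.082 and 5.530 CPM in OE leaf against 31.85, 33.72 and 32.54 CPM in WT leaf, 7.67-fold lower.

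**Figure D5:**
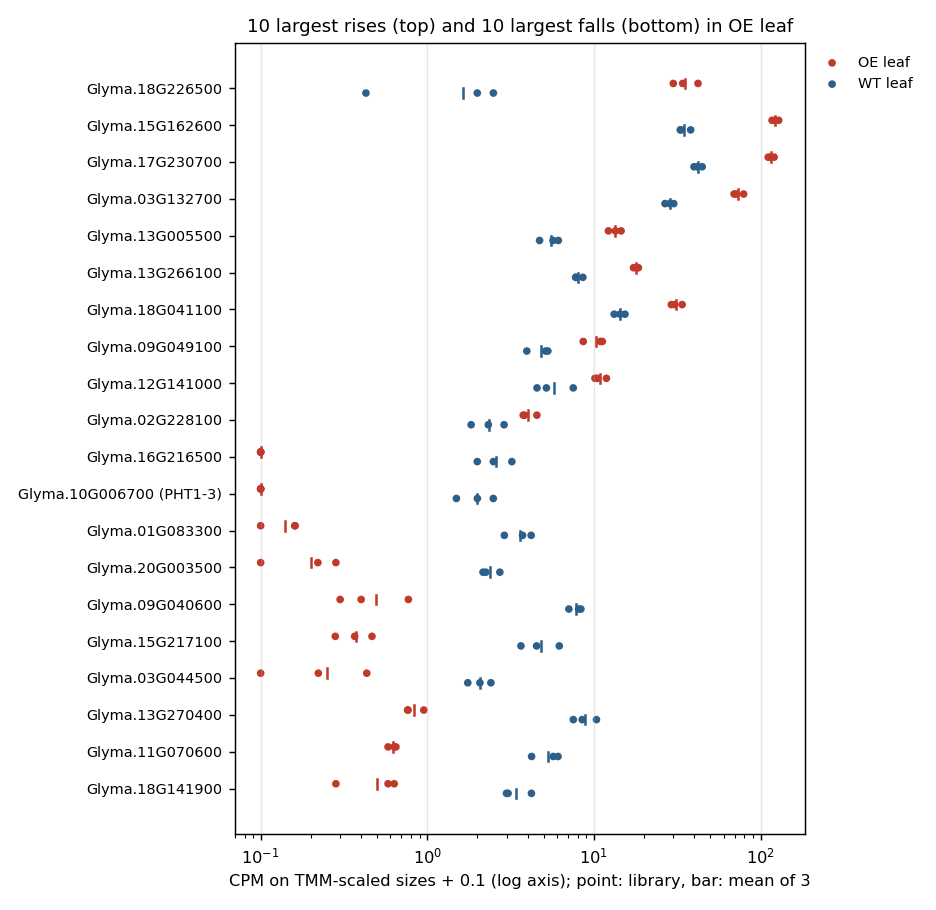
Levels per library (CPM + 0.1 on a log axis) of the 10 genes with the largest rises and the 10 with the largest falls called in leaf among the 102 at 1 CPM or more in a leaf group, OE leaf in red above WT leaf in blue, with a bar at the mean of 3 libraries. Points at the left edge are libraries with 0 counts, as in all 3 OE leaf libraries of Glyma.16G216500 and PHT1-3.

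The effect of the line differed between tissues for many of these genes. A root log2FC above that of leaf can mean a smaller fall in root. Among the 102 genes, the difference of the log2FC (root minus leaf) passed the test in 65, with the root log2FC higher in 35 and lower in 30. Over the 149 it passed in 40 and 34, or 26.8% and 22.8%, where 11.6% and 11.2% of all genes tested did. Of the 272 genes as abundant in WT root but not restricted to it, 34.2% and 17.6% passed. However, 46 of the 149 did not pass the filter in a fit of the leaf libraries alone. Their difference was tested only through their level in root, so the counts over the 149 are a description. With library totals the balance turned, to 29 higher and 44 lower in root. Of the 102, 44 fell in both tissues, 4 rose in both, 10 rose in leaf and fell in root, and 2 fell in leaf and rose in root. The last 2 were Glyma.04G088500 and Glyma.07G162900, and the leaf fall of Glyma.07G162900 lost its call with library totals (edgeR adjusted p = 0.33). The share of all genes tested that moved in both tissues was not computed, so these joint counts are a description and no trait of the set. Among the 10 that rose in leaf and fell in root, Glyma.06G139500 had the widest difference. In leaf it stood at 3.550, 4.386 and 2.932 CPM in OE against 2.723, 2.872 and 1.648 CPM in WT (log2FC 0.59, edgeR adjusted p = 0.0164), while in root it was 22.9-fold lower. That leaf call was lost without OE leaf replicate 2 or WT leaf replicate 3, with edgeR adjusted p of 0.121 and 0.154. It was also lost in a fit of the leaf libraries alone, at 0.0877. The root call of Glyma.09G049100, another of the 10, was lost with library totals (edgeR adjusted p = 0.238).

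All 149 transcripts stayed higher in OE root than in OE leaf by the edgeR test, where 40.0% of all genes tested did. So did 97.5% of the 3519 other genes that met the 20-fold ratio and 70.6% of the 272 as abundant in WT root. The OE libraries took no part in choosing the 149. Genes chosen for a 20-fold ratio in WT were likely to pass, however, so the count is a description. On plain totals 130 kept a ratio of at least 20, and 19 fell under it. The lowest ratio of OE root over OE leaf was 4.34, in Glyma.06G139500. It was followed by Glyma.17G230700 at 4.87, Glyma.03G132700 at 5.78, Glyma.14G016300 at 7.08 and Glyma.05G215900 at 7.58. The median gene stood in leaf at 0.817% of its root level in OE and 1.16% in WT, where the rule itself set the second value.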

How the data were processed

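RNA from 12 samples was sequenced, and the authors deposited 1 table of raw read counts per gene, made with featureCounts v2.0.1 over exons of annotation Wm82.a2.v1 in paired-end mode, per the file headers. Coordinates are those of that annotation, with the aligner not given in the sources used here. No strand option appears in the recorded command, so a gene and its antisense partner are not separated, and reads that map to several near-identical copies count for none.

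The fit used edgeR 4.0.16 in R 4.3.3. Scaling factors (TMM) were 1.345 to 1.352 in OE root, 1.249 to 1.276 in WT root and, for leaf, 0.8625 to 0.889 (OE) and 0.6652 to 0.6756 (WT), so a fold change is measured against most genes and not against the total count. The function filterByExpr kept 35968 genes holding 99.94% of counts. A single robust quasi-likelihood fit held all 12 libraries and 1 coefficient for each group, with 8 residual degrees of freedom and a common biological coefficient of variation of 0.0938. SE is an approximate standard error of the log2FC, computed as its absolute value over the square root of the F statistic of the quasi-likelihood test. In no pair of replicates was the difference within sampling noise.

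The members and lists were chosen with earlier results of these data known. Named are the 10 highest genes by WT root TPM, the 10 largest falls and rises in root among called genes without overlap of the groups, the 10 highest in OE leaf, up to 10 called higher in leaf, genes with a matched name, those at the edges of the rule, and the 5 with the largest difference between tissues. The RefSeq symbol table (Glycine_max_v4.0) shares 0 identifiers with the counts, so names were written from general knowledge and then checked. A name was kept only where that symbol or synonym, with or without the prefix GM, lies on the same chromosome with a span within 20%. This kept 24 of 31 names, and 8 of the 31 were written after the data were examined. GmZF351 itself was not matched, and its level is not analysed here. Alternatives were DESeq2 1.42.0, other scalings, no filter, libraries of 1 tissue, a replicate block, leaving out each library, and other rules of membership.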

Additional observations from a re-analysis of the deposited data

Results flagged for a closer look

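In 29 of the 53 named genes the effect of OE differed between root and leaf, by the edgeR test of the difference itself (root log2FC minus leaf log2FC, with adjusted p of at most 0.0101). Over all genes tested the difference passed in 22.8%, and many of the named genes were chosen for large changes in root or leaf, 5 of them for this difference, so the count is a description. The root log2FC was above the leaf log2FC for 13 of them. These include genes that fell more in leaf, such as Glyma.07G007000 (log2FC -0.566 in root and -2.499 in leaf). The differences were 7.55 for Glyma.16G216500 and 7.10 for PHT1-3 (Glyma.10G006700), both set by 0 counts in OE leaf and so dependent on the prior count. They were 3.95 for Glyma.09G040600, which had 19 counts in OE leaf against 282 in WT leaf, and 3.58 for Glyma.01G083300. Further values were 2.36 for Glyma.17G163200, 2.26 for Glyma.01G208200, 1.93 for Glyma.07G007000 and 1.32 for Glyma.17G030200. Smaller ones were 1.18 for Glyma.04G088500, 0.98 for Glyma.07G162900, 0.65 for Glyma.11G034000, 0.50 for Glyma.02G241200 and 0.48 for Glyma.17G045800.

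The root log2FC was below the leaf log2FC for 16. These include genes that fell more in root, such as Glyma.05G215900 (log2FC -2.405 in root and -0.986 in leaf). The difference was -5.11 for Glyma.06G139500, which fell in root and rose slightly in leaf, and -4.03 for Glyma.18G226500, which rose more in leaf than in root. It was -1.94 for Glyma.03G132700, -1.84 for Glyma.17G230700, -1.58 for Glyma.15G128700 and -1.43 for Glyma.18G041100. It was -1.42 for Glyma.05G215900, -1.39 for Glyma.14G016300, -1.34 for Glyma.09G049100 and -1.32 for Glyma.15G162600. It was -1.31 for Glyma.12G141000, -1.26 for Glyma.02G228100, -0.99 for Glyma.13G266100 and -0.95 for Glyma.02G296600. The smallest were -0.86 for HIDH (Glyma.01G239600) and -0.78 for Glyma.06G186300.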

How the results depend on the processing

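Leaving out each library in turn gave 92 to 103 falls and 10 to 14 rises in root, 61 to 69 falls and 17 to 20 rises in leaf, a difference between tissues in 34 to 38 (higher in root) and 30 to 39 (lower in root), root medians of -0.509 to -0.475 and leaf medians of -0.54 to -0.399 (lowest without OE leaf replicate 2). With library totals the medians were -0.396 in root and -0.052 in leaf, with 31 rises in leaf, and with leaf libraries alone the leaf median was -0.544. Requiring a 50-fold ratio gave medians of -0.409 in root and -0.537 in leaf, with 12 rises in leaf. The 100 highest gave 63 falls in root and a leaf median of -0.548. The 300 highest gave 181 falls and 32 rises in root with a median of -0.396, and 116 falls and 43 rises in leaf. The list chosen in the OE libraries gave 57 falls, 36 rises and a median of -0.114 in root.

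Same-numbered libraries correlated at -0.075 to -0.014 between OE root and WT root, and at 0.115, 0.191 and -0.031 between OE leaf and WT leaf, so not every pair deviated together and the numbers were not taken to pair samples. With a replicate block, 97 fell and 12 rose in root, and 66 fell and 20 rose in leaf. The root calls of Glyma.18G226500 and Glyma.09G049100 were lost, and Glyma.10G206900 passed (edgeR adjusted p = 0.0487). For Glyma.09G049100 the root call was also lost with library totals (edgeR adjusted p = 0.238). It was lost in 5 of 12 fits that left out 1 library, where the edgeR adjusted p reached 0.155 at most.

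Of 1638 values of named genes under alternatives, 1581 kept direction and call, and 11 turned sign, none called as reported. TIP4-1 (Glyma.04G083200) in leaf gave -0.033 and -0.034 with DESeq2 size factors and DESeq2, and -0.058 to 0.144 when libraries were left out in turn. Glyma.11G034000 in root gave 0.016 with root libraries alone, 0.085 with library totals and -0.033 to 0.023 when libraries were left out. Glyma.08G230500 in root gave -0.001 to 0.032 when libraries were left out. With library totals in leaf, Glyma.17G045800 gave 0.207 and Glyma.02G296600 0.307. Why these moved was not tested beyond the shift of all genes by 0.377 with library totals in leaf. Depth limits leaf values under 1 CPM.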
